A study of Mus musculus with 17 samples.

Results

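A set of 93 probe sets had a much lower signal in 1-cell mouse embryos than in both oocytes and 2-cell embryos. The members were chosen by their measured levels: a mean signal of at least 150 in both the oocyte and the 2-cell stage, and a 1-cell mean at least 3-fold below each of these means. Of the 12422 probe sets on the array other than controls, 2507 reached 150 in both stages and 153 of those dipped this far at the 1-cell stage. Of the 153, 59 were left out because they belong to large families described by name (21 with a symbol starting Rpl, 14 Rps, 6 Psm, 4 each of Atp5, Cox and Nduf, 3 Mrp, 2 Eif and 1 Uqcr), and 1 because its 2-cell mean was at least 3 times that of every other stage. The remaining 93 were 3.71% of the 2507. Of these, 74 had 1 gene symbol and stood for 72 genes, 8 had several symbols and 11 had none. Bud31 and Polr3k each held 2 of the members. The names of 18 member probe sets mark probes shared with other transcripts, or dropped probes. These probe sets may hybridise with more than the named gene. Among them were both probe sets of Polr3k, the brighter one of Bud31, and the member probe sets of Nop58, Tubb5, Scd2, Fdps, Gja1 and Noct.

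The arrays were Affymetrix MG-U74Av2 mouse arrays of 4 oocyte, 3 1-cell, 3 2-cell, 4 8-cell and 3 blastocyst samples. A probe set is a group of short probes against 1 transcript, and its signal is a brightness in arbitrary units. Per the labels, each sample's total RNA was amplified in 2 rounds of in vitro transcription. They give no strain, age, treatment or genotype, no maturation stage of the oocytes and no number of pooled cells, nor do they tell separate animals from repeats of 1 preparation, so the p-values cover the spread among these arrays, a spread that may be technical.

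The mouse oocyte stores mRNA made during its growth and makes little new RNA from meiotic maturation until after fertilisation. The stored mRNA is read, lengthened or shortened at its poly(A) tail, or destroyed on a schedule, and the embryonic genome is activated for the most part at the 2-cell stage. Many transcripts for basic cell machinery, such as RNA polymerases, mitochondrial import, chaperones and ribosome assembly, are needed on both sides of this handover. Where a sample holds several types of cell, fewer cells of a type and less RNA per cell cannot be told apart.

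**Figure D1:**
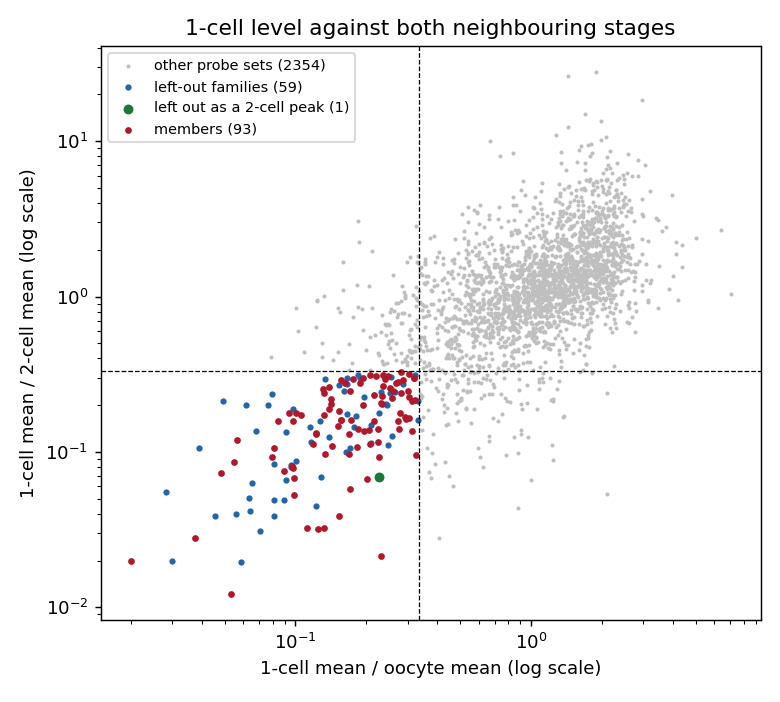
Ratio of the 1-cell mean to the oocyte mean (x axis) and to the 2-cell mean (y axis), both on log scales, for the 2507 probe sets with a mean signal of at least 150 in both oocytes and 2-cell embryos. Dashed lines mark a 3-fold difference. The 93 members and the 59 probe sets of the left-out families share the lower left field, which the rule defines.

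The 1-cell mean was at least 3-fold below the oocyte mean in 260 of the 2507 probe sets and at least 3-fold below the 2-cell mean in 278. The threshold cut through a continuum. The members nearest to it were Fdps (3.06-fold below the nearer of its neighbouring means), H2az2 (3.07-fold), Scd2 (3.12-fold), Kif2c and Polr3k (3.14-fold each) and Rabggtb (3.15-fold). Just outside it lay Hmgb2 (2.99-fold), Coq3 (2.98-fold), Gnl3 and C330007P06Rik (2.94-fold each), Krr1 (2.91-fold) and Uck2 (2.88-fold).

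As examples, the sequence before the annotated start of 3 members is given from RefSeq (GRCm38.p6), 250 bases each, 5′ to 3′ along the gene's strand. These 3 share the dip that the rule set, but not their later course. The ratio of the 8-cell to the 2-cell mean was 0.60 for Gpn1, 3.30 for Idh3g and 2.49 for Nhp2. Gpn1 lies at chr5:31494741-31512904 and its upstream stretch at chr5:31494491-31494740 on the + strand. Idh3g lies at chrX:73778963-73786897, with the stretch at chrX:73786898-73787147 on the - strand. Nhp2 lies at chr11:51619773-51623718, with the stretch at chr11:51619523-51619772 on the + strand. All 3 genes are protein coding. Capitals mark the motifs searched for on either strand other than the GC box, which is left in lower case.
Gpn1: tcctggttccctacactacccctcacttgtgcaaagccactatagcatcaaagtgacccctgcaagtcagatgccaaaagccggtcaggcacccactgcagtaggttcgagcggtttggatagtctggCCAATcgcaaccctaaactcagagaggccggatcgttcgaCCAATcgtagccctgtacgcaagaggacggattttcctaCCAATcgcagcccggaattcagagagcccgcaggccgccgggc
Idh3g: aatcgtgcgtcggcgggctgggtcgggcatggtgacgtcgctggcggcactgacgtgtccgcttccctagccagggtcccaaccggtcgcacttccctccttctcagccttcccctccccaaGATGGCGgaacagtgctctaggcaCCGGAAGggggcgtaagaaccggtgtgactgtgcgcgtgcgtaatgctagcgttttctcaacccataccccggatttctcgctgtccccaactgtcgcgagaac
Nhp2: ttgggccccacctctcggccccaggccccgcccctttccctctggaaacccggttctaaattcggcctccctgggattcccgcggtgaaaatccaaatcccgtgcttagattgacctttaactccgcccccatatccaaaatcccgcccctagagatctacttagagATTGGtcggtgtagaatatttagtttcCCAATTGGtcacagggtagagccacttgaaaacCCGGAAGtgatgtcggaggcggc
The capitals are 3 CCAAT boxes in Gpn1. In Idh3g they are a YY1 core and an ETS core. In Nhp2 they are a CCAAT box in reverse, a pair of overlapping CCAAT boxes on opposite strands, and an ETS core. Not all members have such motifs: the promoters of Mdh2 and Polr2l held 0 of those marked by capitals.

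Of the 74 member probe sets with 1 symbol, the promoter table held 56 genes with 69 promoters, each of 300 bases around the start, and both strands were searched. The ETS core, spelled CCGGAAG, occurred in 20 of the 69 (29.0%), against 21.6% of 2121 promoters of the other genes that reached 150 in oocytes and 2-cell embryos, 14.4% of all promoters of genes on the array and 8.86% of all 32851 promoters in the table. The CCAAT box occurred in 46.4% of member promoters, against 39.3% of those other genes. The TATA box, spelled TATAAA, occurred in 3 (4.35%), against 7.54%. The GC box, spelled GGGCGG, occurred in 59.4%, against 66.4%. The NRF1 core, spelled GCATGCG, was in 8.70% against 7.50%, the YY1 core, spelled GATGGCG, in 10.1% against 6.88%, and the E box, spelled CACGTG, in 14.5% against 11.0%. Median GC content was 58.7% in member promoters and 62.0% in those of the other genes. The median length of the gene on the chromosome was 13.2 kb for 72 member genes and 21.1 kb for 2002 other genes. These shares were not tested, and a match to a few letters is not a binding site.

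Over the 93 members, the median of the stage means was 569 in oocytes, 88.5 in 1-cell embryos, 605 in 2-cell embryos, 937 in 8-cell embryos and 808 in blastocysts. The other 2414 probe sets that reached 150 in oocytes and 2-cell embryos had medians of 475, 458, 418, 306 and 314 in the same order. Taken member by member, the 1-cell mean was a median of 5.47-fold below the oocyte mean and 6.15-fold below the 2-cell mean. The nearer neighbour was at least 5-fold higher for 40 members and at least 10-fold higher for 11. The deepest dip was 50.0-fold, in a probe set annotated to both Gm5848 and Snrpd2. Of the members, 15 had a 1-cell mean under 41.1, the median of all values on all arrays, so that their folds depend on the background.

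**Figure D2:**
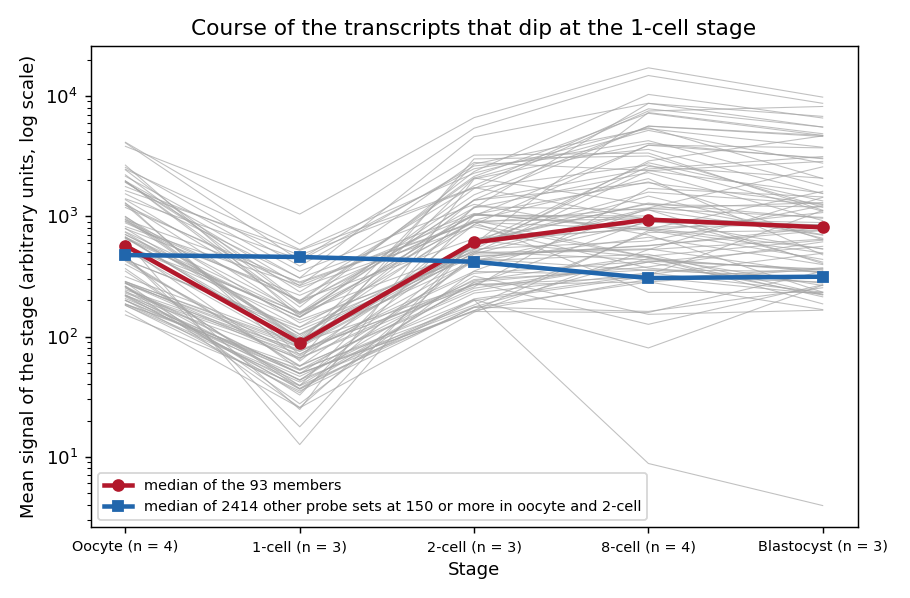
Mean signal by stage (log scale) of each of the 93 members (grey), their median (red circles) and the median of the 2414 other probe sets with at least 150 in oocytes and 2-cell embryos (blue squares). The members' median is 88.5 at the 1-cell stage and 937 at the 8-cell stage, while that of the others stays between 306 and 475.

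Signals given as a ± b are the stage's mean ± SD (n = 4 for oocytes and 8-cell embryos, n = 3 for the others). The same dip stood on each of the 3 1-cell arrays, although not equally. The members' median signal was 79.4, 87.7 and 103 on the 1-cell arrays, against 582.8 to 624.8 on the oocyte arrays. It was 485.2, 562.8 and 779 on the 2-cell arrays, 862.4 to 980.8 on the 8-cell arrays and 792.5 to 815.5 on the blastocyst arrays. Every 1-cell array lay below every oocyte and every 2-cell array for 93 of 93 members, where 11.2% of all 8067 probe sets tested did so. Since the rule used these levels, this describes the choice. The third 1-cell array had the shallowest dip: it held the highest of the 3 values for 65 members, and 70 members were at least 3-fold below both neighbouring means on it alone, against 85 on the second array and 92 on the first.

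The rule was also applied with each array left out in turn, and the array left out was then read. Without 1-cell array 1, 91 probe sets were chosen, and 87 of them (95.6%) were at least 3-fold below both means on that array. For array 2 it was 81 of 94 (86.2%) and for array 3 it was 69 of 110 (62.7%). Among all probe sets that reached 150 in oocytes and 2-cell embryos, 7.46%, 6.26% and 5.19% met the threshold on arrays 1, 2 and 3. With an oocyte array left out, 87.4% to 94.6% of those chosen were at least 3-fold above the 1-cell mean on it. Among all probe sets that reached 150 in both stages, 9.88% to 10.7% were. With a 2-cell array left out, 86.7% to 95.5% of those chosen were, against 10.1% to 12.5% of all. This asks for a difference from the 1-cell mean alone, whereas a 1-cell array had to lie below both means.

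**Figure D3:**
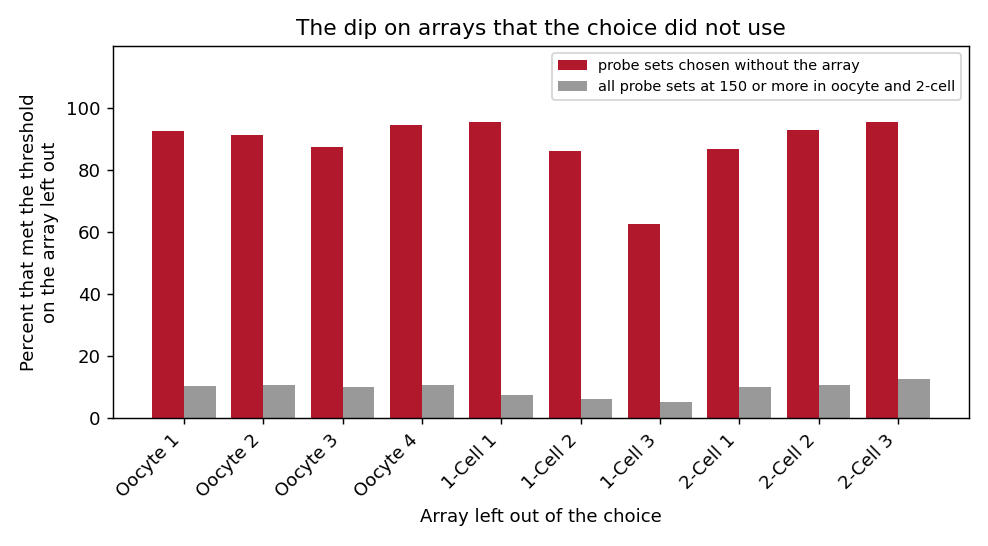
Percent of probe sets that met the 3-fold threshold on the array left out of the choice, for those chosen on the remaining arrays (red) and for all probe sets with at least 150 in oocytes and 2-cell embryos (grey). A 1-cell array had to be 3-fold below both neighbouring means, an oocyte or 2-cell array 3-fold above the 1-cell mean. The lowest red bar is 1-cell array 3, at 62.7%, beside a grey bar of 5.19%.

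Changes are given as limma's differences of mean log2(signal + 10.7), ± SE. The added 10.7 makes changes of dim probe sets look smaller than they are. For 1-cell minus oocyte the median over the members was -2.24, against 0.04 over all probe sets tested. All 93 were called lower at an adjusted p below 0.05 and 0 higher, where 19.8% and 17.3% of all probe sets were. For 2-cell minus 1-cell the members' median was 2.44, against 0.06, with 93 called higher and 0 lower, where 25.9% and 21.2% of all probe sets were. Both contrasts chose the members, so nothing is read from these counts.

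Members came from most of the cell machinery lists examined. Counted were probe sets that reached 150 in oocytes and 2-cell embryos, so Polr3k and Bud31 count with 2 each. The largest shares were for pluripotency genes (2 of 10) and RNA polymerases and general transcription factors (6 of 41). Mitochondrial genes outside the left-out families followed (6 of 43). Of the rest, there were 4 of 48 chaperone probe sets, 3 of 50 of splicing and 3 of 87 of vesicle traffic. The nucleolar list held 2 of 30, and that of the cell cycle and DNA replication 2 of 69. There was 1 member each among ubiquitin conjugation (of 72), histones and chromatin (of 42), cytoskeleton (of 36), redox (of 30), elongation and tRNA charging (of 23) and the vacuolar proton pump (of 12). Glycolysis (0 of 10), nucleotide metabolism (0 of 19) and oocyte and maternal factors (0 of 20) held none. Over all 2507 probe sets the share was 3.71%. At that share, lists this small may hold no member or only a few, and the differences between lists were not tested. In all, 34 members were in a list, and 40 others with 1 symbol were in none. The lists were formed by name pattern and do not hold every gene of a function. Fcf1, of ribosomal RNA processing, and Coa6, of cytochrome c oxidase assembly, were members in no list.

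The RNA polymerase members were led by Polr2l, a small subunit shared by the nuclear RNA polymerases. Polr2l had 2184, 2497, 2530.0 and 2981 on the oocyte arrays, 331, 358 and 466 on the 1-cell arrays and 2338, 3016 and 2495 on the 2-cell arrays, then 3662, 3955, 3432 and 3324 in 8-cell embryos and 1812, 1283 and 1533 in blastocysts. Its 1-cell arrays were the lowest of all 17. Gpn1, a GTPase that acts in the nuclear import of RNA polymerase II, had a like course up to the 2-cell stage. Gpn1 had 2204, 2470.1, 2404 and 2635 on the oocyte arrays, 173, 169.7 and 239 on the 1-cell arrays and 1707, 2114 and 2416 on the 2-cell arrays, then 1157, 1018, 1459.7 and 1355 in 8-cell embryos and 1206, 1165 and 1212 in blastocysts. Its oocyte and 2-cell arrays overlapped, and no 1-cell array overlapped with an array of any other stage.

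Polr3k, a subunit of RNA polymerase III, was a member through 2 probe sets, both with names that mark shared or dropped probes. Polr3k had 1519, 1786, 1383 and 1840.4 on the oocyte arrays, 497, 507 and 556 on the 1-cell arrays and 1634, 1696 and 1855 on the 2-cell arrays, then 1283, 1037, 868 and 558 in 8-cell embryos and 613, 525 and 459 in blastocysts. In this probe set the blastocyst arrays overlapped with the 1-cell arrays, and the lowest of them, at 459, was under every 1-cell array. The other Polr3k probe set had means of 787 ± 109, 219.9 ± 61 and 925 ± 242 in oocytes, 1-cell and 2-cell embryos. Gtf2e2, the smaller subunit of the general factor TFIIE, had 569 ± 70.2, 137 ± 33.6 and 463 ± 60.6 at the same stages. Over all 78 tested probe sets of this list, 25 were called lower and 17 higher in 1-cell embryos than in oocytes, with a median change of -0.15. Of all 8067 probe sets, 19.8% and 17.3% were. Such list counts include the members, which the rule chose for a low 1-cell level, so they are a description.

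Among mitochondrial members, Idh3g, a regulatory subunit of the NAD-dependent isocitrate dehydrogenase, was the deepest. Idh3g had 276, 262, 283 and 305 on the oocyte arrays, 16.8, 34.5 and 31.5 on the 1-cell arrays and 323, 323 and 406 on the 2-cell arrays, then 1344, 1060.0, 1285 and 940.2 in 8-cell embryos and 883, 1108 and 942 in blastocysts. The 1-cell arrays stood apart from all others, and the 8-cell and blastocyst arrays were all above those of oocytes and 2-cell embryos. Mdh2, malate dehydrogenase of the citric acid cycle, also had its lowest arrays at the 1-cell stage. Mdh2 had 1258, 1186, 1331 and 1345 on the oocyte arrays, 121, 169.8 and 164 on the 1-cell arrays and 1197, 1199 and 1669 on the 2-cell arrays, then 2406, 2557, 2696 and 2223 in 8-cell embryos and 2966, 3435 and 2994 in blastocysts. The oocyte and 2-cell arrays overlapped. Timm17a, part of the inner membrane import channel, had a shallower dip. Timm17a had 2244, 2566, 2452 and 2564 on the oocyte arrays, 371, 507 and 708 on the 1-cell arrays and 1914, 2290.1 and 2626 on the 2-cell arrays, then 5723, 5139, 5549.9 and 5322 in 8-cell embryos and 2176, 1971 and 2023 in blastocysts. Its 1-cell arrays were spread more widely, with the third the highest. Tomm7, of the outer membrane import complex, had 1371 ± 78.3, 191 ± 45.5 and 1007 ± 172 in oocytes, 1-cell and 2-cell embryos, and Atpif1, the inhibitor of the ATP synthase, had 912 ± 144, 200.4 ± 26.5 and 652 ± 41.8. Over the whole list, members included, 35 of 92 tested probe sets were called lower and 7 higher in 1-cell embryos than in oocytes (median -0.34). Over all probe sets the shares were 19.8% and 17.3%.

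The chaperone members were Pfdn6, Hsph1, Hspa4 and Cct4. Pfdn6 is a subunit of prefoldin, which hands new actin and tubulin chains to the chaperonin. Pfdn6 had 620.0, 624, 701 and 755 on the oocyte arrays, 75.4, 82.8 and 90.5 on the 1-cell arrays and 394, 518 and 958 on the 2-cell arrays, then 1417, 1337, 1203 and 1102 in 8-cell embryos and 743, 635 and 729 in blastocysts. The 1-cell arrays lay close together and the 2-cell arrays were far apart, with the third the highest. Hspa4, a nucleotide exchange factor of Hsp70, had 432 ± 22.9, 57.3 ± 20.6 and 240.4 ± 99.6 in oocytes, 1-cell and 2-cell embryos. Cct4, a chaperonin subunit, had 286 ± 47.3, 83.6 ± 11.1 and 497 ± 107 at these stages and 2389 ± 383 in 8-cell embryos. Over all 97 tested chaperone probe sets, members included, 42 were called lower and 14 higher in 1-cell embryos than in oocytes (median -0.41). Over all probe sets the shares were 19.8% and 17.3%.

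Both members in the nucleolar list encode proteins of small nucleolar RNA particles, which guide the modification of ribosomal RNA. That list was formed by name pattern and leaves out Fcf1, a member gene that acts in ribosomal RNA processing. Nhp2 belongs to the H/ACA particles. Nhp2 had 481, 598, 491 and 532 on the oocyte arrays, 51.8, 85.4 and 103 on the 1-cell arrays and 1638, 1908 and 2678 on the 2-cell arrays, then 5049.7, 5172, 5782 and 4670.1 in 8-cell embryos and 3059, 2245 and 2980.0 in blastocysts. Its 2-cell arrays were all above the oocyte arrays, so that the level after the dip was higher than before it. Nop58, of the C/D particles, had 200.4 ± 27.9, 34 ± 3.07 and 588 ± 106 in oocytes, 1-cell and 2-cell embryos, and likewise no overlap between 2-cell and oocyte arrays. In the splicing list, the spliceosome gene Bud31 was a member through 2 probe sets, with 1908 ± 108, 264 ± 59.3 and 1017 ± 91.8 in the brighter one. Lsm4, of the ring that binds U6 RNA, had 253 ± 8.9, 49.1 ± 17.8 and 164 ± 73. Of 58 tested nucleolar probe sets, 27 were called lower and 4 higher in 1-cell embryos than in oocytes (median -0.44), and of 86 splicing probe sets, 18 lower and 22 higher (median 0.14). Both counts include the members, and over all probe sets the shares were 19.8% lower and 17.3% higher.

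The pluripotency members Dppa5a and Dppa4, both markers of pluripotent cells, differed in course. Dppa5a had 2795, 2425, 2434 and 2978 on the oocyte arrays, 123, 136 and 178 on the 1-cell arrays and 1261, 1577 and 2249 on the 2-cell arrays, then 8568, 7773, 7507 and 6119.6 in 8-cell embryos and 8099.5, 9091 and 7310.1 in blastocysts. Dppa5a, an RNA-binding protein, was abundant on both sides of the dip. Dppa4 had 225, 377, 275 and 232 on the oocyte arrays, 41.8, 64.9 and 86.1 on the 1-cell arrays and 2526, 2828 and 3632 on the 2-cell arrays, then 2818, 3043, 3071 and 3721 in 8-cell embryos and 1421, 806 and 1341 in blastocysts. Dppa4, a chromatin protein, was low in oocytes and already near its highest level at the 2-cell stage: its 1-cell mean was 4.32-fold below that of oocytes and 46.6-fold below that of 2-cell embryos. In the cell cycle list, the mitotic kinase Cdk1 had more at the 2-cell stage than in oocytes. Cdk1 had 1513, 2001, 1077 and 987 on the oocyte arrays, 383, 411 and 517 on the 1-cell arrays and 3051, 3476 and 3132 on the 2-cell arrays, then 3855, 3006, 3212 and 3324 in 8-cell embryos and 1144, 1016 and 1203 in blastocysts. All 2-cell arrays were above all oocyte arrays. Prim1, the catalytic subunit of DNA primase, had 182 ± 20.8, 35.2 ± 10.4 and 176 ± 43.4 in oocytes, 1-cell and 2-cell embryos. The histone variant gene H2az2 had 819 ± 62, 267 ± 39.7 and 2797 ± 159.

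Other lists held 1 to 3 members each. Cops6, of the COP9 signalosome, had means of 966 ± 184, 94.3 ± 13.5 and 599 ± 279 in oocytes, 1-cell and 2-cell embryos. Atp6v1d, a subunit of the vacuolar proton pump, had 791 ± 140.5, 104 ± 22.8 and 605 ± 86.4. Eprs, the glutamyl-prolyl-tRNA synthetase, had 186 ± 26.7, 43.6 ± 14.3 and 164 ± 38.6. The lowest oocyte mean of all members was that of Gpx4, which reduces lipid peroxides, at 151 ± 24.1, with 38.9 ± 23.7 and 174 ± 11.3 at the following stages. Ap3d1, Rab1a and Gosr1, of vesicle traffic, had 1-cell means of 113 ± 13.7, 71.5 ± 16.8 and 46.6 ± 42.3, and the second of the Gosr1 arrays, at 95.4, stood far above the other two, at 22.3 and 22.0.

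**Figure D4:**
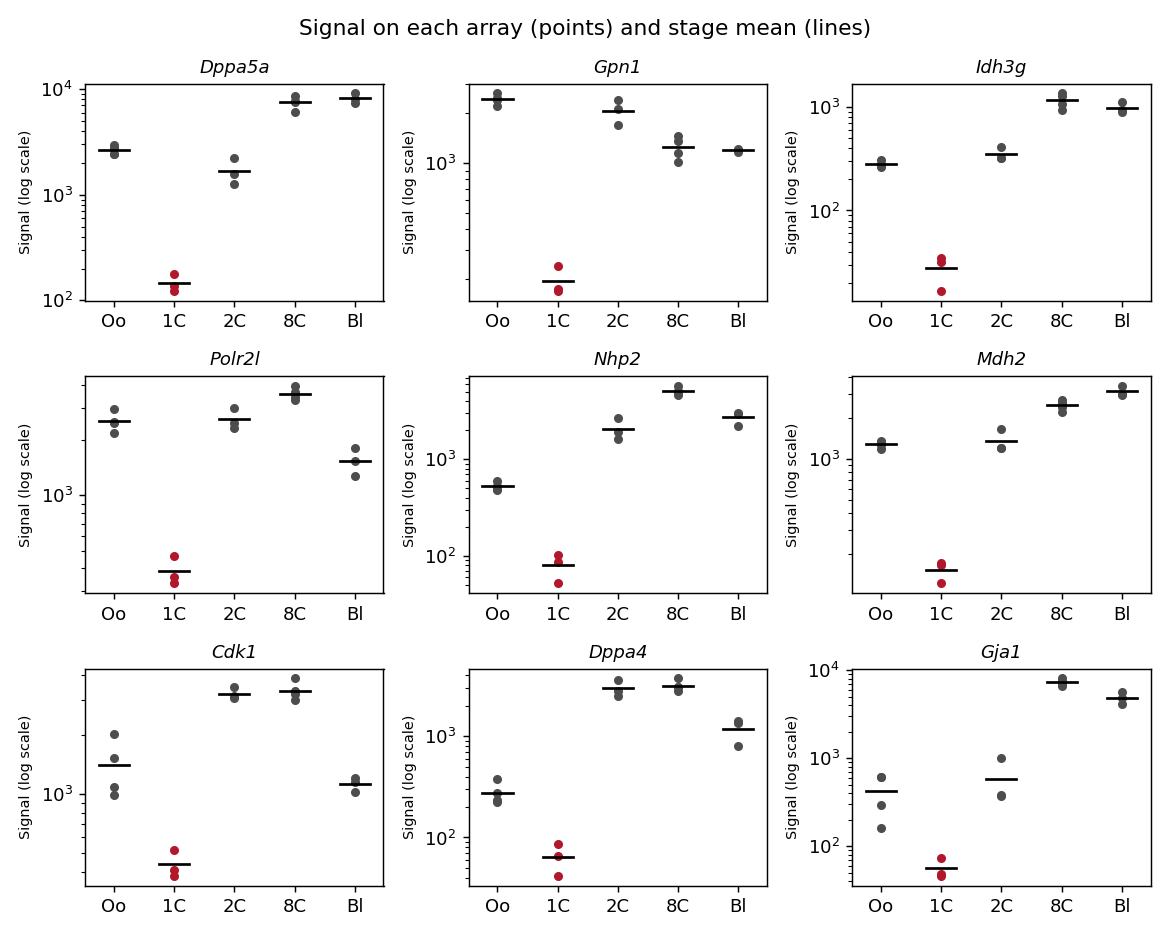
Signal on each array (points; 1-cell arrays in red) and stage mean (black lines) of 9 members, each on its own log axis, at the oocyte (Oo), 1-cell (1C), 2-cell (2C), 8-cell (8C) and blastocyst (Bl) stage. The 1-cell arrays are the lowest for each of the 9, and Cdk1, Dppa4, Idh3g and Nhp2 are higher on every 2-cell array than on any oocyte array.

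Several of the deepest dips were in genes outside the lists. The uncharacterised gene 0610012G03Rik had the deepest dip of the members with 1 symbol, with a mean of 17.8 ± 8.54 in 1-cell embryos, 26.6-fold below oocytes and 35.6-fold below 2-cell embryos. Gm15772, at 11.2-fold below oocytes, is annotated as a pseudogene with Rpl26 as a synonym, so that it stands close to the left-out ribosomal families. Bola2, which acts with glutaredoxins in iron-sulfur cluster handling, was near background in 1-cell embryos. Bola2 had 242, 211, 266 and 321 on the oocyte arrays, 36.2, 34.8 and 6.2 on the 1-cell arrays and 364, 436 and 655 on the 2-cell arrays, then 1253, 1248, 1040.5 and 985 in 8-cell embryos and 440.4, 382 and 389.6 in blastocysts. The third 1-cell array was the lowest here. Parp2, a poly(ADP-ribose) polymerase of DNA repair, had a 1-cell mean of 38.9 ± 13.2, 8.97-fold below oocytes and 30.8-fold below 2-cell embryos. Gja1, which encodes the gap junction protein connexin 43, varied widely before the 8-cell stage. Its member probe set has a name that marks shared probes. Gja1 had 619, 618, 163 and 292 on the oocyte arrays, 48.8, 74.5 and 46.4 on the 1-cell arrays and 379, 372 and 1011 on the 2-cell arrays, then 7030.2, 8026, 7508 and 6513 in 8-cell embryos and 5599, 4864 and 4079.6 in blastocysts. The oocyte arrays alone spanned more than 3-fold, and all 8-cell and blastocyst arrays were above all earlier ones.

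In the deposited values, the members' median level after the dip was close to that before it, although single members differed. The ratio of the 2-cell to the oocyte mean had a median of 1.06 over the members. Over the other probe sets that reached 150 in both stages it was 0.96. Among members it was at least 2 for 11, at most 0.5 for 1 and between these for 81. For 2-cell minus oocyte, limma called 28 members higher and 20 lower, where 25.8% and 23.2% of all probe sets were. The median change was 0.04, against 0.09 over all probe sets. With a scaling on the hybridisation spikes the counts were 9 and 50, and with each array centred on its median they were 20 and 29. The rule required both stages to be at 150 or more, which shapes this comparison.

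From the 2-cell to the 8-cell stage the members' median change was 0.66, against -0.06 over all probe sets and -0.34 over the other probe sets that reached 150 in oocytes and 2-cell embryos. Limma called 50 members higher and 11 lower, where 25.8% and 28.3% of all probe sets were. Since the 2-cell stage was used by the rule, these counts are a description. With the spike scaling, under which the median of all probe sets was -0.55, 26 members were called higher and 18 lower, and the members' median was 0.08. The highest stage was the 8-cell stage for 46 members and the blastocyst for 25. Among the 2414 others that reached 150 in oocytes and 2-cell embryos, 16.9% and 13.3% were highest at these stages. A further 37.3% of those were highest at the 1-cell stage, where the rule itself keeps members from being highest. The left-out families went further, with 52 of 59 called higher in 8-cell than in 2-cell embryos. Among members, Dppa5a had 7492 ± 1019.8 in 8-cell and 1696 ± 505 in 2-cell embryos, and Rabggtb, a subunit of the enzyme that attaches lipid anchors to Rab proteins, had 1704 ± 211 and 258 ± 125. Some members had less at the 8-cell stage. Kif2c, a kinesin that takes microtubules apart in mitosis, had 233 ± 68.7 in 8-cell and 892 ± 173 in 2-cell embryos. The 1-cell stage was the lowest of all 5 stages for 90 members. The 3 exceptions were Kif2c, Fdft1 and Stat4. Stat4, a transcription factor of cytokine signalling that was named after its values were seen, had 8.8 ± 5.37 in 8-cell and 202 ± 72.1 in 2-cell embryos.

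The comparison of blastocysts with 8-cell embryos used no stage of the dip, and so is the step in which the members could be tested. These stages entered the rule only where 1 probe set was left out for its 2-cell peak. More members fell than rose: 35 were called lower and 13 higher in blastocysts, with 45 not called, where 20.8% and 21.8% of all 8067 probe sets were called lower and higher. The members' median change was -0.35, against -0.09 over all probe sets, and arrays did not overlap for 51 of 93, where 43.4% of all 8067 did not. Of the 2414 other probe sets that reached 150 in oocytes and 2-cell embryos, 680 (28.2%) were called lower and 607 (25.1%) higher, and of the 59 of the left-out families 21 lower and 12 higher. These directions are relative to each array's overall signal: with a scaling on the hybridisation spikes, the median of all probe sets was 0.82 and 1 member was called lower and 47 higher. The members' median was then 0.74.

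Among called members with 1 symbol and no overlap between the arrays, the largest falls were those of Cdk1, Fdft1 and Bola2. Cdk1 had 1144, 1016 and 1203 in blastocysts and 3855, 3006, 3212 and 3324 in 8-cell embryos, with no overlap (-1.57 ± 0.19, adjusted p = 1.13e-06). Fdft1, squalene synthase, had 191, 219 and 290.2 in blastocysts and 639.6, 621, 721 and 809 in 8-cell embryos (-1.55 ± 0.17, adjusted p = 2.48e-07). Bola2 fell to 404 ± 31.9 in blastocysts, against 1132 ± 139 in 8-cell embryos (-1.46 ± 0.27, adjusted p = 1.69e-04). Dppa4 fell by 1.44 on the log2 scale, Timm17a by 1.40, Fcf1, a nuclease-like factor of ribosomal RNA processing, by 1.32, Ttc1, a tetratricopeptide repeat adaptor, by 1.28 and Noct, nocturnin, by 1.26. The arrays of blastocysts and 8-cell embryos did not overlap for any of these 8. The brighter further probe set of Noct averaged 724 in blastocysts and 474 in 8-cell embryos. Further falls were those of Polr2l (-1.23 ± 0.16, adjusted p = 2.50e-06), Nop58 (-1.15 ± 0.17, adjusted p = 1.18e-05), Nhp2 (-0.91 ± 0.19, adjusted p = 6.53e-04) and Pfdn6 (-0.84 ± 0.21, adjusted p = 0.00245). With quantile normalization Nhp2 was not called (adjusted p = 0.0632).

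Among the same kind of members, the largest rises were those of Scd2, Zdhhc16 and Tubb5. Scd2, a fatty acid desaturase, had 902, 1099.9 and 1346 in blastocysts and 319, 375, 322 and 281 in 8-cell embryos (1.74 ± 0.29, adjusted p = 5.97e-05). Zdhhc16, a protein palmitoyltransferase, had 296, 214 and 292 in blastocysts and 58.2, 89.3, 60.6 and 113 in 8-cell embryos (1.64 ± 0.23, adjusted p = 5.01e-06), and all blastocyst arrays were higher. Tubb5, a beta-tubulin, rose to 1434 ± 226, against 527 ± 83.7 (1.43 ± 0.23, adjusted p = 2.78e-05). Hsph1, a relative of Hsp70 that acts with it, rose to 2572 ± 428, against 1170.3 ± 399 (1.17 ± 0.21, adjusted p = 9.69e-05). Coa6, which acts in the assembly of cytochrome c oxidase, rose by 1.11, Stxbp3, which controls vesicle fusion, by 1.08, Atpif1 by 1.02 and Nmt1, which attaches myristate to proteins, by 0.99. These 8 kept their call and direction with the spike scaling, while each of the falls named in this comparison lost its call and Nhp2 and Pfdn6 turned to 0.19 and 0.26, neither called. Dppa5a (0.13 ± 0.18, adjusted p = 0.602), Gpn1 (-0.05 ± 0.16, adjusted p = 0.830) and Idh3g (-0.23 ± 0.18, adjusted p = 0.319) were not called.

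**Figure D5:**
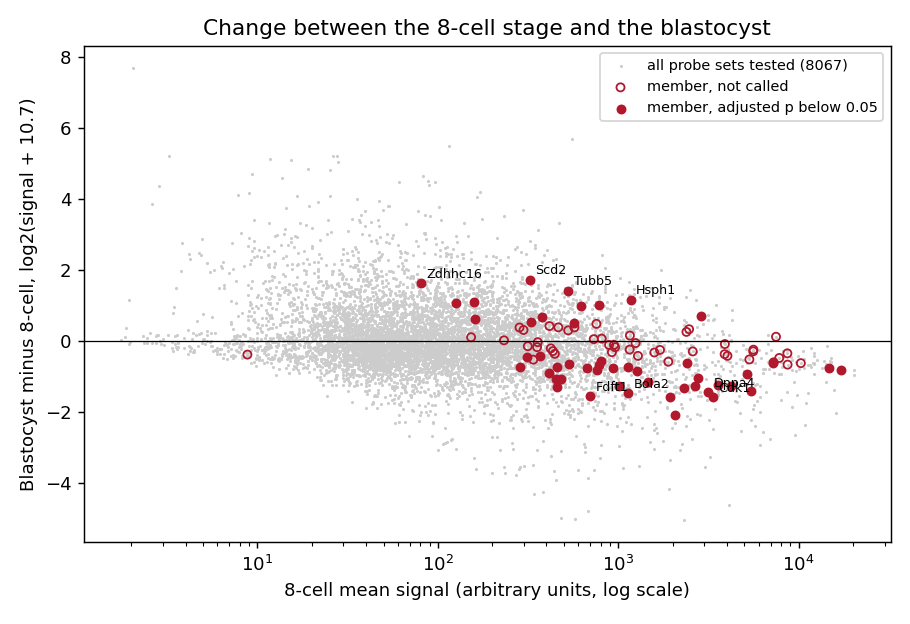
Change between blastocysts and 8-cell embryos, as a difference of mean log2(signal + 10.7), against the 8-cell mean signal (log scale), for the 8067 probe sets tested (grey) and the 93 members (red; filled where the adjusted p is below 0.05). Of the members 35 filled points lie below 0 and 13 above it, and 8 members described beside the plot are named.

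Further probe sets of the same genes did not all share the dip. There were 21 of them for 15 member genes, of which 16 were tested. In 1-cell embryos compared with oocytes, 7 were called lower and 3 higher, where 19.8% and 17.3% of all probe sets were. In 2-cell compared with 1-cell embryos 5 were called higher and 2 lower, where 25.9% and 21.2% of all probe sets were. Of the 16, 4 were called in both directions of the dip. These counts are a description. A second probe set of Fdps, a farnesyl diphosphate synthase, had means of 199, 70.5 and 223 in oocytes, 1-cell and 2-cell embryos, and changed by -1.37 ± 0.20 and then 1.46 ± 0.22. Of the 4 further probe sets of Hspa4, 2 were called both lower at the 1-cell stage and higher after it. A dim second probe set of Gja1 had means of 29.7, 11.3 and 25.7 at these stages, and neither step was called. The second probe set of Tubb5, brighter than the member, had 1813, 755 and 945, and only the fall was called. Noct, a nuclease-like enzyme related to the deadenylases, ran against itself. Noct had 4540.1, 2746, 4203 and 4786 on the oocyte arrays, 426, 427 and 431 on the 1-cell arrays and 2089, 2475 and 2876 on the 2-cell arrays, then 4198, 4969.8, 3493 and 4310.1 in 8-cell embryos and 1732, 2265 and 1356 in blastocysts. This member probe set had 3 almost equal 1-cell values. The further Noct probe set had a mean of 2146 in oocytes, 4850 in 1-cell and 1476 in 2-cell embryos, with changes of 1.18 ± 0.19 and -1.70 ± 0.20, and a dimmer one went the same way (0.73 ± 0.23 and -1.09 ± 0.25). The member probe set of Noct has a name that marks probes shared with other transcripts, so which of these signals is that of Noct cannot be told apart here. For Wipi2, which acts in the formation of autophagosomes, the member probe set had 262 ± 29.2, 32.6 ± 23.9 and 1019.7 ± 158, while a dim further probe set was higher in 1-cell embryos than in oocytes (0.86 ± 0.33) at means of 36.4 and 15.0.

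Some measures of the arrays moved with the dip. The 18S ribosomal RNA controls had a signal of 229 to 892 on the oocyte arrays, 6261 to 22953 on the 1-cell arrays and 891 to 1872 on the 2-cell arrays. The mean signal of the 9 hybridisation spike probe sets was 1559 to 2186 on oocyte, 2922 to 5669 on 1-cell and 2504 to 4167 on 2-cell arrays. Their part in the dip was not tested. Zp3, of the egg coat, averaged 33.2 in blastocysts and 7194 in oocytes, and the trophectoderm keratin Krt8 averaged 3655 in blastocysts and 12.7 in oocytes, while the trophectoderm factor Cdx2 was at 2.15 to 8.55 throughout. No marker of cumulus and granulosa or of blood cells reached 150 in oocytes and 2-cell embryos. The summed signal of 19 oviduct and uterus probe sets was 794 to 891 on oocyte, 969 to 1168 on 1-cell, 2240 to 3155 on 2-cell, 590 to 10933 on 8-cell and 500 to 735 on blastocyst arrays. None of the 4 lists of other cell types held a member. Only 1 sperm probe set and 1 oviduct and uterus probe set reached 150 in oocytes and 2-cell embryos, so the rule all but fixed this count. The summed signal of these lists on the 1-cell arrays was not uniformly below that on the oocyte arrays. For cumulus and granulosa cells it was 233 to 368 against 322 to 350.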

How the data were processed

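The authors deposited linear signal intensity values of 12488 probe sets on each array. The software and scaling behind these intensity values are not given in the sources used here. Averaged over its middle 96%, every array came to between 150.097 and 150.133, and the values were used unscaled. Groups were the 5 stages of the sample titles. Members were found by the rule from stage means of the deposited intensity values. The members and gene lists were chosen with earlier results of these data known.

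Intensities were taken to log2 after adding 10.7, the 25th percentile of all values, and the 17 arrays were fitted together, with 1 mean for each stage, by limma 3.58.1 in R 4.3.3 (lmFit, then eBayes with an intensity trend, 12 residual degrees of freedom). Controls (66) were left out, as were probe sets that passed 41.1, the overall median, on fewer than 3 arrays. This left 8067, and 93 of 93 members passed. Tests were two-sided, with Benjamini-Hochberg adjustment over all probe sets tested within a comparison, and a call was an adjusted p below 0.05. The fit was also run on simulated data with independent normal errors, a run that does not measure how often its calls err on these arrays. The number of arrays limits the precision.

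Symbols came from the platform annotation, brought up to date by Entrez ID (10833 probe sets with 1 symbol, 396 with several, 1193 with none). Gene lists were formed by name pattern. Named were, among members with 1 symbol, the 12 deepest, the 6 with the highest oocyte mean, up to 4 members per gene list, the 8 largest rises and falls called between 8-cell embryos and blastocysts without overlap, the 6 probe sets nearest to the threshold on each side, and members with a further probe set that went the other way. Same-numbered arrays of different stages did not deviate together: over 31 pairs the correlation of their deviations ran from -0.08 to 0.12 and passed 0.1 in 2. Protein features were not analysed here.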

Additional observations from a re-analysis of the deposited data

Results flagged for a closer look

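Of 52 groups of 4 arrays examined for the members with values per array or named changes, 1 held an array far from the rest. Fdft1 had a signal of 2731 on oocyte array 2, and its gap to the next array was 0.857 of the whole range of the 4 arrays on the log2 scale, more than Dixon's test allows. Chance alone would place about 1 in 20 such groups there.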

How the results depend on the processing

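The number of members depended on the rule's own settings and on the scaling. There were 57 with a 1-cell mean at most 1 in 4 of each neighbour, 196 at most 1 in 2, 57 with a minimum mean of 300 and 223 with a scaling on the hybridisation spikes (all 93 among them). It was 88 to 110 with each array left out, with 110 without 1-cell array 3, 84 after quantile normalization (81 shared) and 74 with the arrays set to one median (71 shared). Between blastocysts and 8-cell embryos, the spike scaling gave 47 members higher and 1 lower, and 4583 probe sets higher and 215 lower in all, where Nhp2 and Pfdn6 turned to 0.19 and 0.26. Every other alternative gave 12 to 15 higher and 30 to 38 lower, and leaving out each array gave 9 to 15 and 31 to 37, with 1534 to 1785 higher and 1301 to 1705 lower over all probe sets. With the spike scaling, added after seeing the data for these comparisons, 2-cell minus oocyte gave 9 members higher and 50 lower, and 8-cell minus 2-cell gave 26 and 18. With the replicate number as a block, 12 members were higher and 33 lower in blastocysts, 27 and 20 for 2-cell minus oocyte, and 51 and 11 for 8-cell minus 2-cell. The causes of these shifts were not tested. For 1-cell arrays the percentage of probe sets that met the threshold on an array left out was lowest at 62.7.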
